A study of Mus musculus with 9 samples.

Results

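Gene expression was compared between a single leukemic clone, which the study calls stably expanded, and 3 clones that were still pre-malignant when they were collected. The comparison took 6 of the 9 RNA-Seq libraries of the study, 3 of the stably expanded clone and 3 of the pre-malignant clones, and 13968 of the 55401 annotated genes, those with a mean normalized count of 10 or more over the 6 libraries. All clones descended from the H9M line, which was made from lineage-negative bone marrow of C57BL/6-Ly5.1 mice with a gammaretroviral vector for *Meis1* and *Hoxa9* that also carries puromycin resistance. The line had been edited with Cas9 and carried a lentiviral color code vector (FGB-D) under a compound *Cbx3* and SFFV promoter, with a truncated EGFR as surface marker. These features were common to both groups. The cells were transplanted with helper bone marrow into lethally irradiated C57Bl6/J mice, and the RNA came from thawed splenocytes sorted for CD45.1, bright truncated EGFR, cKit and dim or absent CD11b. The stably expanded samples were all of the clone with color code 34, taken from mice 13, 14 and 17 at the leukemic endpoint. The paper reports this clone as expanded in the blood of all recipients at the first analysis. At the endpoint color code 38 was dominant in mouse 13, and color code 43 shared dominance with 34 in mouse 14. In mouse 17 color code 34 was dominant. The pre-malignant samples were of the clones with color codes 33, 38 and 43, taken from 1 animal, mouse 15, in the fourth week after transplantation. One group is therefore 1 clone in 3 mice and the other is 3 clones in 1 mouse, so that clone, mouse and time after transplantation cannot be told apart in any difference below, and the spread within a group is between mice in the former and between clones in the latter. The 3 remaining libraries, called de novo expanded, were of those same 3 clones at the endpoint, 1 in each leukemic mouse, and their levels are given beside a few genes.

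HOXA9 and MEIS1 are transcription factors that keep myeloid progenitors dividing and hold back their maturation, and their joint overexpression gives an aggressive mouse model of acute myeloid leukemia. A normal granulocyte-monocyte progenitor can follow a neutrophil or a monocyte course. On the neutrophil course, driven by C/EBPα and then C/EBPε, cells first fill primary granules with myeloperoxidase and serine proteases and later fill secondary granules with lactoferrin, cathelicidin and lipocalin. On the monocyte course, driven by IRF8 and KLF4, cells take up the M-CSF receptor, fractalkine receptor and antigen presentation. Cytokine and growth factor receptors act on both through immediate early genes such as *Fos* and *Junb*, NF-κB targets and JAK-STAT feedback inhibitors.

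The libraries held between 10379739 and 15325127 reads on genes, with 27896 to 30548 genes detected in a pre-malignant library and 21618 to 27067 in a stably expanded one. Pearson correlations of log2 values were 0.968 to 0.972 among the pre-malignant libraries, 0.963 to 0.973 among the stably expanded ones and 0.943 to 0.962 between the groups. Mitochondrial transcripts took 11.3% to 12.9% of the reads in the pre-malignant and 8.54% to 12.3% in the stably expanded libraries. Olfactory and vomeronasal receptor genes, which myeloid cells do not use, took 0.00808% to 0.0179% and 0.00215% to 0.00788%, a further difference between the groups whose part in the results was not tested apart from the fit given below. Library numbers below are column numbers within a group and name neither a clone nor a mouse.

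The genes behind the sort and the engineered line were at like levels. *Ptprc*, which encodes CD45, had mean normalized counts of 4518 ± 350 in the pre-malignant and 4521 ± 199 in the stably expanded libraries (SD, n = 3 in each), a log2 difference of 0.00 ± 0.09 (SE). *Kit* was at 3652 ± 317 and 2965 ± 177 and *Itgam*, which encodes CD11b, at 596 ± 77.1 and 921 ± 220, and neither changed by the 2-fold limit (adjusted p = 0.0795 and 0.0485). Reads on *Hoxa9* (5701 ± 1846 and 6649 ± 382) and *Meis1* (9187 ± 2871 and 11384 ± 426) join the endogenous genes and the vector, and did not pass the test (adjusted p = 0.379 and 0.225).

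A gene was called when its log2(normalized count + 1) differed with a Benjamini-Hochberg adjusted p below 0.05 by limma, over all 13968 genes, and by at least 2-fold. By this rule 384 genes were called, 2.75% of those tested, with 168 (1.2%) higher and 216 (1.55%) lower in the stably expanded clone. These shares are the background for every count of called list members below. Library values of the groups did not overlap for 30.7% of all genes tested, which is the background for that reading. The median log2 fold change of all genes was 0.00, with 7060 genes above and 6908 below zero. With 3 libraries against 3, no gene alone can give a two-sided exact permutation p under 0.1. Each limma adjusted p below therefore rests on its model of the values, which also pools the spread across genes. Of the 384 calls, 117 (69 higher and 48 lower) also passed in each of the 6 fits that left out 1 library. A single fit of all 9 libraries left 6 of them, with *Cd81*, *Gbp5*, *Gm5483* and *Igkv12-41* among these, and a fit with the share of olfactory and vomeronasal reads as a covariate, which itself differs between the groups, left 5, with *Ighm*, *Nlrc5*, *Sncaip* and *Schip1* among these. No called gene with a value changed direction in either fit.

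**Figure D1:**
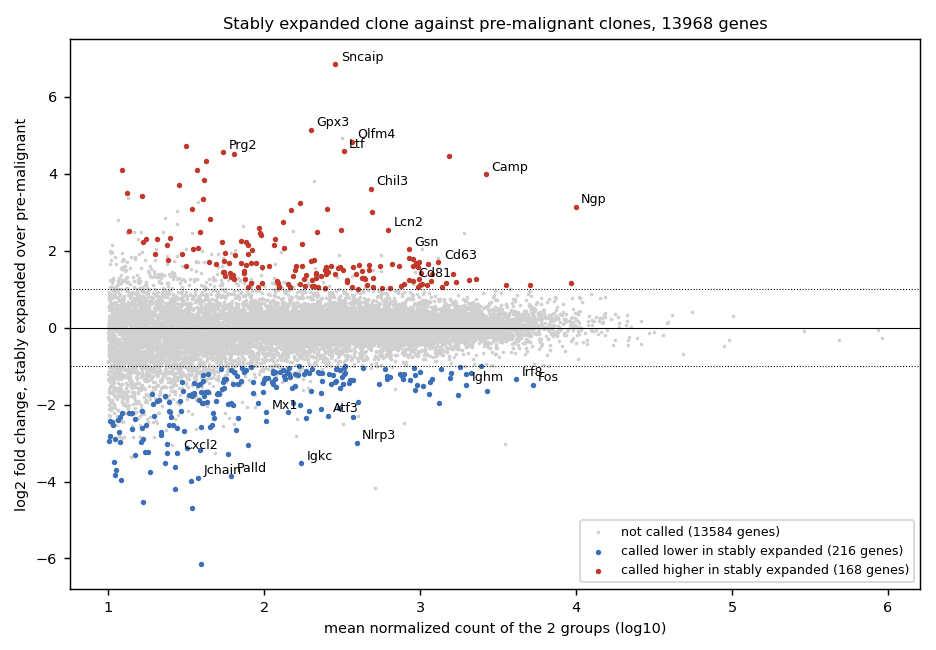
Log2 fold change of the stably expanded clone over the pre-malignant clones (y axis) against the mean normalized count of the groups (x axis, log10) for the 13968 genes tested. Each point is a gene, dotted lines mark the 2-fold limit, the 168 genes called higher are red and the 216 called lower are blue. Granule genes such as *Ltf*, *Camp* and *Ngp* lie toward the top and *Nlrp3* and *Palld* toward the bottom.

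Genes of neutrophil granules were the group with the most members called higher. Of 39 genes of secondary granules and late neutrophil maturation 32 could be tested and 30 had a positive log2 fold change, with a median of 1.64. Of the 32, 16 were called higher and none lower, against 1.2% and 1.55% of all genes tested. Of 18 primary granule genes, all tested, 15 were positive and 4 were called higher, none lower, with a median of 0.82. The median of the genes that fill granules late was thus the larger of the pair.

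Among the secondary granule genes, *Ltf*, which encodes the iron-binding protein lactoferrin, was at 14.6, 28.5 and 5.47 normalized counts in the pre-malignant and at 1347, 478 and 62.4 in the stably expanded libraries (log2 fold change 4.58 ± 0.91 SE, adjusted p = 0.0154). *Camp*, the cathelicidin antimicrobial peptide, was at 83.3, 442 and 244 against 11022, 2796 and 1160 (3.98 ± 0.72, adjusted p = 0.0112). The groups did not overlap for either gene, and in both the first stably expanded library was the highest and the third the lowest. *Ngp*, the neutrophilic granule protein, reached the highest counts of the list, with 1398, 1756 and 1517 against 35685, 14296 and 4956 (3.14 ± 0.51, adjusted p = 0.00794). *Lcn2*, the lipocalin that binds bacterial siderophores, rose from 216, 167 and 128 to 1699, 940 and 579 (2.54 ± 0.33, adjusted p = 0.00357). The transcription factor gene *Cebpe*, whose product activates secondary granule genes, rose as well, from 498, 446 and 381 to 1904, 963 and 1478, a 3.17-fold difference (1.66 ± 0.21, adjusted p = 0.00346). The remaining called members were *Olfm4*, *Fcnb*, *Pglyrp1*, *Trem3*, *Chil1*, *Chil3*, *Mcemp1*, *Stfa2l1* and *BC100530* of the granule and cytosolic proteins, and the chemoattractant receptors *Cxcr2* and *Ltb4r1*. *Cxcr2*, the receptor for neutrophil chemokines, was at 37.5, 15.6 and 19.2 against 92.1, 71.9 and 57.1, and *Ltb4r1*, the leukotriene B4 receptor, at 186, 203 and 236 against 720, 530 and 432. The stefin-like genes *Stfa2l1*, *BC100530* and *Gm5483* lie in 1 cluster of near-identical copies, so that reads may be split among them. *BC100530* and *Gm5483* had 3 reads or fewer in each pre-malignant library and were higher by at least 21.6-fold in the former and at least 28.7-fold in the latter, taking 3 reads as the floor.

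The stably expanded libraries differed widely among themselves in these genes. Summed over the list, the normalized counts were 23723 to 26275 in the pre-malignant libraries and 111130, 60066 and 38663 in the 3 stably expanded ones, and of the 16 called genes the first stably expanded library was the highest in 15 and the third the lowest in 15. Of the 16 calls, 9 (*Olfm4*, *Camp*, *Ngp*, *Lcn2*, *Fcnb*, *Pglyrp1*, *Trem3*, *Ltb4r1* and *Cebpe*) also passed in every fit that left out 1 library. *Ltf*, *Chil3*, *BC100530*, *Mcemp1*, *Cxcr2*, *Stfa2l1* and *Chil1* each missed in at least 1 such fit, with adjusted p up to 0.116. The count over the list ran from 11 to 20 in those fits.

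Of the 16 called genes 13 had a promoter window in RefSeq (GRCm38.p6, 250 bases before to 50 after a gene's start). The C/EBP half-palindrome TTGCNNAA, searched on both strands, was in 4 of their 13 windows, against 10.8% of all 32851 windows and 8.61% of those of tested genes. The matches were in *Fcnb*, *Lcn2*, *Ltf* and *Ngp*, and 1 each of *Ltf*, *Ngp* and *Fcnb* is shown with the matching letters in capitals, read 5′ to 3′ on the strand of the gene. They are a description of the sequence and not of a bound site.
Ltf, chr9:111019192-111019249, plus strand: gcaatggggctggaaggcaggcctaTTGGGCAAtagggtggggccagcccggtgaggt
Ngp, chr9:110419645-110419702, plus strand: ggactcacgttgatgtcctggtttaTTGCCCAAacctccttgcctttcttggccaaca
Fcnb, chr2:28084969-28085026, minus strand: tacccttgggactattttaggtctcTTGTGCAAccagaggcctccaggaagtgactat

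**Figure D2:**
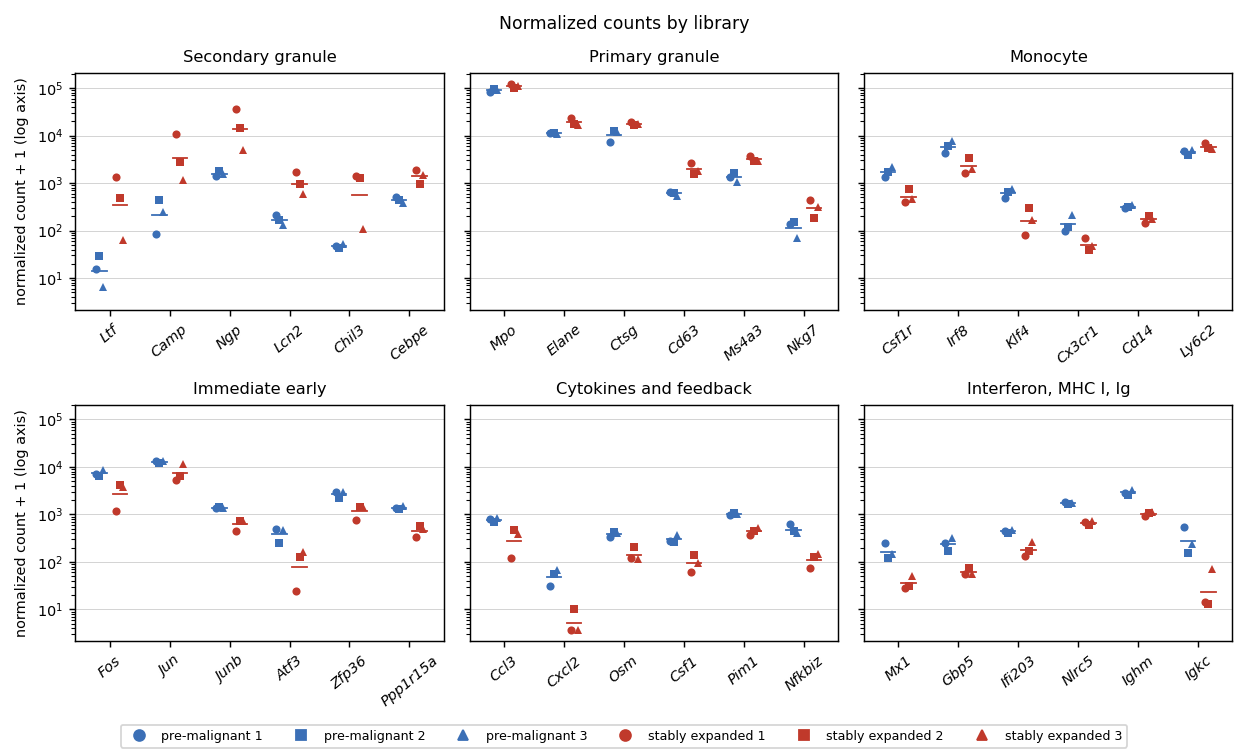
Normalized count + 1 (y axis, log scale) of genes of 6 functions in the 3 pre-malignant (blue) and 3 stably expanded (red) libraries, with a point for each library, its number by shape, and a line at the mean of the log2 values of the group. In *Ltf*, *Camp* and *Ngp* the stably expanded points spread widely but all lie above the pre-malignant ones, and in *Csf1r* and *Irf8* all lie below.

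Primary granule genes moved less. *Mpo*, the myeloperoxidase, was abundant throughout, with 90068 ± 5256 in the pre-malignant and 111600 ± 10934 in the stably expanded libraries, and did not pass the test (log2 fold change 0.31 ± 0.12, adjusted p = 0.152). *Elane*, the neutrophil elastase, was at 11263, 11187 and 10840 against 23777, 17172 and 16985, a 1.72-fold difference that passed the test but not the fold limit (adjusted p = 0.00783). The called members were *Cd63*, a tetraspanin of the granule membrane, *Prss57*, a serine protease, *Ms4a3*, a membrane protein of granulocyte-monocyte progenitors, and *Nkg7*, a granule membrane protein shared with cytotoxic lymphocytes. *Cd63* rose from 663, 619 and 539 to 2649, 1545 and 1822 (1.69 ± 0.18, adjusted p = 0.00247), and *Ms4a3* from 1347, 1668 and 1045 to 3753, 2955 and 2934 (1.26 ± 0.16, adjusted p = 0.00346). *Prss57* rose 2.37-fold. *Nkg7*, at 134, 149 and 70.2 against 432, 187 and 312, kept its call in only 1 of the 6 fits without a library, with adjusted p up to 0.11. Markers of mature neutrophils, which the sort for cKit should leave out, summed to 46.5 to 71.7 normalized counts in the pre-malignant and 99.6 to 134 in the stably expanded libraries, but of the 5 markers 3 were tested and only *Cxcr2*, which is also in the list above, was positive and called. The other tested markers, *Mmp8* and *Il1r2*, had negative log2 fold changes and were not called. In RNA from sorted cells as a whole, more cells of a type and more RNA per cell cannot be told apart.

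Genes of other granulocyte functions were called beside these. *Prg2*, the eosinophil major basic protein, was at 13.5, 3.68 and 0 against 146, 51.0 and 113 (log2 fold change 4.55 ± 0.84, adjusted p = 0.0117), with no overlap between the groups. Its neighbor *Prg3*, chosen after the values were seen, was at 192, 68.9 and 135 against 463, 249 and 394 (1.55 ± 0.35, adjusted p = 0.0244). *Siglecf*, a sialic acid-binding receptor of eosinophils, rose from 343, 222 and 252 to 1063, 738 and 692. *Siglecf* belongs to a list of 31 inhibitory and activating myeloid receptors, of which 27 were tested, 18 were positive and 6 were called higher. The others were *Cd33*, another sialic acid-binding receptor (596, 497 and 357 against 1835, 1268 and 1218, adjusted p = 0.00346), *Clec4a2*, an inhibitory C-type lectin, and *Cd300lf*, *Cd300ld* and *Cd300c2* of the CD300 family. Calls of *Cd300ld* and *Cd300c2* were lost without some single libraries, with adjusted p up to 0.0958. One member, *Clec7a*, the β-glucan receptor dectin-1, was called lower, at 450, 434 and 703 against 178, 293 and 157 (-1.35 ± 0.25, adjusted p = 0.0123). The enzymes of eicosanoid synthesis *Alox5*, the arachidonate lipoxygenase of leukotriene synthesis (53.1, 20.2 and 21.0 against 220, 102 and 57.1, adjusted p = 0.0462) and *Ptgs1*, a cyclooxygenase (1117, 951 and 666 against 2452, 1656 and 1940, adjusted p = 0.00803), were also called higher, though they were picked after their values were seen and are in no list.

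Genes of the monocyte and dendritic cell course lay mostly on the other side. Of 33 such genes 22 were tested and 17 had a negative log2 fold change, with a median of -0.64. Of the 22, 4 were called lower and 2 higher, against 1.55% and 1.2% of all genes tested. *Csf1r*, the receptor for M-CSF, was at 1338, 1683 and 2160 in the pre-malignant and 399, 757 and 454 in the stably expanded libraries, a 3.28-fold difference (-1.72 ± 0.23, adjusted p = 0.00412). *Irf8*, the transcription factor that directs progenitors to monocytes and dendritic cells, fell from 4224, 5918 and 7514 to 1670, 3440 and 1980 (-1.35 ± 0.25, adjusted p = 0.0126). *Klf4*, which acts downstream of it in monocytes, fell from 480, 639 and 734 to 80.4, 295 and 170 (-1.93 ± 0.37, adjusted p = 0.0136). In each of these 3 the groups did not overlap and the second stably expanded library was the nearest to the pre-malignant ones. *Cx3cr1*, the fractalkine receptor, was at 98.9, 119 and 217 against 67.9, 38.2 and 46.5 (adjusted p = 0.0305). *Ccr2*, the chemokine receptor by which monocytes leave the marrow, overlapped between the groups, with 897, 937 and 1243 against 255, 963 and 555 (adjusted p = 0.122). Called higher were *Fcgr4*, an activating IgG receptor also carried by neutrophils, and *Id2*, an inhibitor of basic helix-loop-helix factors, at 80.1, 90.1 and 81.2 against 265, 244 and 151 (1.34 ± 0.24, adjusted p = 0.0114). *Csf1r* and *Id2* kept their calls without any single library. *Irf8* lost it without the second pre-malignant library (adjusted p = 0.0571), and the number called lower was 1 without that library and 2 without the third. The number called higher was 1 without the first stably expanded library or the second or the third pre-malignant one. Macrophage markers, a separate list, summed to 1177 to 2560 and 2362 to 3142 in the 2 groups, so that their sum was not lower with the monocyte genes. Only 2 of the 9 reached the filter, both positive and neither called, and the sum rests mostly on them.

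**Figure D3:**
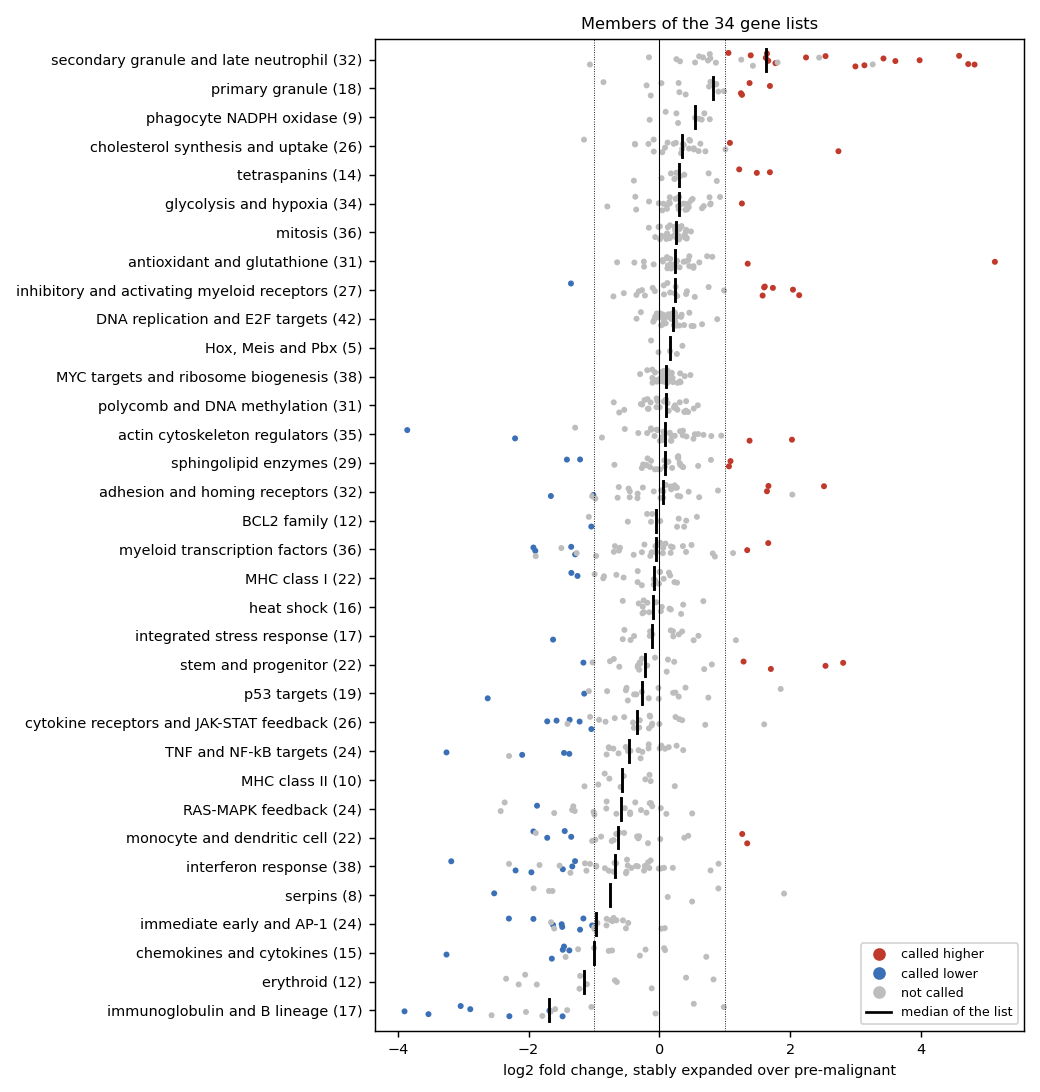
Log2 fold change (x axis) of the tested members of each of the 34 gene lists, marker lists not included (y axis, number tested in brackets), with 1 point per gene, red where called higher and blue where called lower, and a black bar at the list median. Secondary granule genes sit furthest to the right, with a median of 1.64, and immunoglobulin and B lineage genes furthest to the left, with a median of -1.68.

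Immediate early genes were lower in the stably expanded clone. Of 27 immediate early and AP-1 genes 24 were tested and 22 were negative, with a median of -0.97. Of the 24, 8 were called lower, against 1.55% of all genes tested, and none higher. *Fos*, a subunit of AP-1, was at 7221, 6474 and 8714 normalized counts against 1183, 4156 and 3770 (-1.49 ± 0.37, adjusted p = 0.0354), the first stably expanded library being the lowest. *Junb*, its partner, fell from 1348, 1436 and 1334 to 444, 714 and 725 (-1.16 ± 0.17, adjusted p = 0.00544). *Ppp1r15a*, a phosphatase subunit that reverses the stress block on translation, fell from 1332, 1305 and 1529 to 328, 562 and 489 (-1.63 ± 0.18, adjusted p = 0.00284). *Atf3*, *Klf4*, *Klf6* and *Maff*, which encode transcription factors, and *Zfp36*, which encodes a protein that destabilizes cytokine messages, made up the rest. Other well-known members were not called. *Egr1* was at 994, 881 and 837 against 73.3, 1020 and 341, overlapping between the groups (adjusted p = 0.167), and *Jun* at 13413, 11935 and 13111 against 5253, 6390 and 11624 (adjusted p = 0.053).

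This group rested heavily on single libraries. Summed over the list, normalized counts were 46473 to 51426 in the pre-malignant libraries and 17612, 28415 and 35443 in the stably expanded ones, and the first stably expanded library was the lowest in 7 of the 8 called genes. Without it 3 genes were called, and 4, 3 and 4 without pre-malignant libraries 1, 2 and 3, while leaving out the second or the third stably expanded library gave 11 and 12. *Ppp1r15a* alone of the 8 kept its call in each of these fits. *Junb* and *Zfp36* stayed at adjusted p up to 0.03 and 0.044 but slipped under the fold limit without the first stably expanded library. The rest reached adjusted p up to 0.124. By DESeq2 *Fos* and *Atf3* did not pass (adjusted p = 0.26 and 0.22). These genes are also induced by handling of cells. Heat shock genes, which can move with it, had none of 16 tested members called and a median of -0.10, which was 0.03 by edgeR or DESeq2 and 0.10 without the second stably expanded library, and mitochondrial reads were at the shares given above. Their part in this result was not tested.

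Of the 10 RefSeq promoter windows of these 8 genes, 2 held the cAMP response element TGACGTCA (*Maff* and *Ppp1r15a*), against 1.79% of all windows and 3.14% of those of tested genes, and 1 held a CArG box, the serum response factor motif (*Zfp36*), against 1.63% and 1.2%. The *Ppp1r15a* match lies 12 bases before the gene's start and is printed with the element in capitals.
Ppp1r15a, chr7:45526269-45526305, minus strand: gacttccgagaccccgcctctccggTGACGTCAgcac

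Cytokine and NF-κB genes followed the same direction. Of 31 chemokines and cytokines 15 were tested, 12 were negative and 5 were called lower, against 1.55% of all genes tested. The groups did not overlap in 10 of the 15, all of them lower. Over all 13968 genes tested, 2040 were lower without overlap. Of the 5 called, the first pair are growth factors or cytokines of myeloid cells. *Csf1*, which encodes M-CSF, the ligand of the receptor from *Csf1r*, fell from 271, 256 and 372 to 60.8, 142 and 95.6 (-1.64 ± 0.29, adjusted p = 0.0103), and *Osm*, oncostatin M, fell from 341, 421 and 406 to 117, 204 and 112 (-1.48 ± 0.23, adjusted p = 0.0073). The other 3 are chemokines. *Cxcl2*, which attracts neutrophils through CXCR2, was at 30.2, 55.2 and 66.6 against 2.68, 9.11 and 2.66 (-3.26 ± 0.57, adjusted p = 0.0102). *Ccl3* was at 798, 676 and 831 against 120, 471 and 380 and *Ccl4* at 114, 112 and 78.4 against 22.3, 43.7 and 55.8, and both encode inflammatory chemokines of the CC family. Calls of *Ccl3* and *Ccl4* were close to the threshold (adjusted p = 0.0466 and 0.0452), and *Ccl3* was not called by edgeR or DESeq2 (adjusted p = 0.061 and 0.35). *Csf1* and *Osm* kept their calls without any single library. Without the first stably expanded library 3 of the 5 were called, and 3, 2 and 3 without pre-malignant libraries 1, 2 and 3.

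Of 31 TNF and NF-κB targets 24 were tested, 18 were negative and 4 were called lower, 3 of them the chemokines just named, with a median of -0.46. The fourth, *Nfkbiz*, which encodes the nuclear IκBζ that is needed for secondary inflammatory genes, fell from 613, 437 and 406 to 75.1, 125 and 145 (log2 fold change -2.10 ± 0.25, adjusted p = 0.00346) and passed without any single library. The list count was 2 without the first stably expanded library and 2, 1 and 2 without the pre-malignant ones. The list median was -0.32 without the first and -0.58 without the third stably expanded library, and -0.35 with the olfactory and vomeronasal covariate. *Nlrp3*, the inflammasome sensor that NF-κB primes, is in none of these lists and fell from 613, 645 and 759 to 51.8, 221 and 50.5 (-2.99 ± 0.45, adjusted p = 0.00607). It was among the 12 largest decreases of called genes whose groups did not overlap and whose higher group had a mean of at least 100. *Il1rn*, which encodes the interleukin-1 receptor antagonist and was picked after its values were seen, went the other way, from 37.5, 42.3 and 42.0 to 180, 104 and 125 (1.69 ± 0.28, adjusted p = 0.00877). Of the 2 called targets with a promoter window, *Cxcl2* held the NF-κB motif GGGNNTTTCC, at 2 places in 1 window, against 1.63% of all windows. The motif was also in 2 of 13 windows of the called secondary granule genes, which were higher. Of the windows of called interferon and immediate early genes, 1 of 5 and 0 of 10 held it. The matches of *Cxcl2* are shown in capitals.
Cxcl2, chr5:90903777-90903836, plus strand: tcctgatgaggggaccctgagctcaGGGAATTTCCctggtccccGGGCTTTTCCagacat

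Among 30 cytokine receptors and JAK-STAT feedback genes 26 were tested, 20 were negative and 5 were called lower, against 1.55% of all genes tested. *Pim1*, a kinase induced by STAT5, fell from 986, 1090 and 1023 to 372, 449 and 519 (-1.22 ± 0.14, adjusted p = 0.00284). *Il6st*, the gp130 subunit shared by the interleukin-6 and oncostatin M receptors, fell from 995, 1216 and 1482 to 318, 726 and 446 (-1.37 ± 0.25, adjusted p = 0.0116). *Il10ra*, the interleukin-10 receptor chain, fell from 389, 436 and 523 to 83.1, 229 and 174 (-1.57 ± 0.31, adjusted p = 0.0149). *Csf1r*, given above, and *Socs1*, the feedback inhibitor, were the other two. *Pim1* and *Csf1r* were called without any single library, whereas *Socs1* (117, 89.2 and 83.9 against 56.3, 41.9 and 41.2, adjusted p = 0.0479) was called in none of these fits, nor by edgeR or DESeq2 (adjusted p = 0.051 and 0.072). The count was 2 without the second and 3 without the third pre-malignant library. Of 29 RAS-MAPK feedback genes 24 were tested, 21 were negative, with a median of -0.59, and 1 was called lower. This is 4.17% of the 24, against 2.75% of all genes tested that were called in either direction. The gene was *Phlda1* (73.9, 51.5 and 56.6 against 15.2, 17.3 and 14.6, adjusted p = 0.0132), and its call was lost without the first pre-malignant library (adjusted p = 0.063). Without the second and the third stably expanded library 6 and 3 of this list were called. The list median was -0.34 without the first stably expanded library, -0.92 without the second pre-malignant library and -0.26 with the olfactory and vomeronasal covariate. *Dusp1*, a MAP kinase phosphatase, was at 2691, 2192 and 2739 against 820, 1362 and 1835, a 1.99-fold difference just inside the fold limit.

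Interferon-response genes were lower in the stably expanded clone. Of 44 listed 38 were tested and 33 were negative, with a median of -0.67. Of the 38, 6 were called lower, against 1.55% of all genes tested, and none higher. *Mx1*, an antiviral GTPase, fell from 246, 118 and 146 to 26.8, 30.1 and 50.5 (-2.20 ± 0.35, adjusted p = 0.00741). *Gbp5*, a guanylate-binding protein, fell from 250, 167 and 323 to 55.4, 71.9 and 55.8 (-1.96 ± 0.27, adjusted p = 0.00455), and the nucleic acid sensor gene *Ifi203* from 447, 413 and 469 to 131, 172 and 259 (-1.29 ± 0.22, adjusted p = 0.00932). None of these 3 overlapped between the groups, and all passed without any single library. *Gbp2*, *Rsad2*, which encodes viperin, and *Ifi27l2a* were called too but not without every library, with adjusted p up to 0.131. *Ifi27l2a* varied most, at 88.5, 44.1 and 67.5 against 0.894, 7.29 and 22.6. The count was 3 without any 1 of the pre-malignant libraries and 10 without the third stably expanded library. *Ifitm3*, an antiviral membrane protein outside the list that was picked after its values were seen, was at 146, 161 and 225 against 56.3, 52.8 and 70.4.

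Antigen presentation genes were divided. *Nlrc5*, the transactivator of MHC class I genes, had with *Ighm* the smallest adjusted p of all genes, at 1790, 1628 and 1699 against 707, 600 and 709, a 2.54-fold difference (-1.35 ± 0.11, adjusted p = 5.89e-04). *H2-Q6*, a class I gene whose reads cannot be fully parted from those of its neighbors in the H2-Q family, fell from 1187, 878 and 1179 to 565, 423 and 378 (-1.25 ± 0.17, adjusted p = 0.00434). These were the 2 of 22 class I genes called, both called without any single library, and the list median was -0.09, with 7 of 22 positive. That median was -0.22 without the first stably expanded library, -0.20 and -0.16 without the first and the second pre-malignant library, -0.16 after quantile normalization and -0.37 with the olfactory and vomeronasal covariate. Of 11 class II genes 10 were tested, 9 were negative and none was called, with a median of -0.57. *Cd74*, the invariant chain, was at 245, 173 and 256 against 158, 53.7 and 116 (adjusted p = 0.0697).

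The 6 called interferon genes included 4 with RefSeq promoter windows, *Gbp2*, *Gbp5*, *Ifi203* and *Rsad2*. The core of the interferon-stimulated response element, GAAANNGAAA searched on both strands, was in at least 1 window of each of the 4, in 4 of 5 windows, against 3.44% of all windows and 3.22% of those of tested genes. The match of *Rsad2* lies upstream of the annotated gene and reads on the reverse strand, as the capitals show.
Rsad2, chr12:26456538-26456597, minus strand: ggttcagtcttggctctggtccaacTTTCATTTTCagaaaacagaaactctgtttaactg

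Genes of the B lineage, several of which are also markers of another cell type, were lower. Of 29 immunoglobulin and B lineage genes 17 were tested and 15 were negative, with a median of -1.68. Of the 17, 7 were called lower, against 1.55% of all genes tested, and none higher. *Ighm*, the immunoglobulin μ heavy chain, was at 2873, 2615 and 3246 against 931, 1052 and 1144 (-1.48 ± 0.11, adjusted p = 5.89e-04). *Igkc*, the κ light chain constant region, was at 540, 155 and 240 against 13.4, 11.8 and 70.4 (-3.53 ± 0.63, adjusted p = 0.0103). Both kept their calls without any single library. *Pax5* and *Ebf1*, transcription factors that commit cells to the B lineage, were at 64.5, 41.4 and 23.7 against 2.68, 8.20 and 2.66 and at 47.9, 27.6 and 15.5 against 4.47, 1.82 and 2.66. *Ms4a1*, which encodes CD20, *Jchain* and *Ighd* were the rest. The last 5 lost their calls without some libraries, with adjusted p up to 0.133, the count being 2 without the first or second and 4 without the third pre-malignant library. By DESeq2 *Jchain* was not called (adjusted p = 0.44).

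The 8 B cell markers were all tested and 5 were called lower, *Pax5*, *Ms4a1*, *Ebf1*, *Igkc* and *Ighm*. All of these are among the called genes of the list above, so the markers are no separate evidence. Their normalized counts summed to 3033 to 3698 in the pre-malignant and 1178 to 1480 in the stably expanded libraries, most of it *Ighm*. *Cd79a*, a signaling chain of the B cell receptor, was at 19.8, 13.8 and 23.7 against 8.04, 4.55 and 2.66 (adjusted p = 0.083). No B cell marker was at 0 in all 6 libraries. The sort for CD45.1, bright truncated EGFR and cKit should leave out B cells of the host and helper marrow, and which cells gave these reads was not tested. Erythroid markers summed to 335 to 769 and 66.4 to 434, and 6 of the 7 tested were negative, with a median of -1.87. Of the 12 tested genes of the erythroid list 10 were negative and 2 positive, with a median of -1.16 that was -0.48 without the third stably expanded library. None of the 12 was called, *Hba-a1* overlapped between the groups, and the list summed to 1387 to 1984 and 1629 to 2480. Of the T and NK cell markers only *Nkg7* reached the filter, and the platelet markers summed to 45.0 to 47.9 and 29.5 to 44.6, with *Ppbp* and *Gp1bb* at 0 in all 6 libraries.

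Among the genes of stem and progenitor cells a few rose strongly while the list as a whole did not. Of 38 listed 22 were tested, 9 were positive, 4 were called higher and 1 lower, against 1.2% and 1.55% of all genes tested. The list median of -0.23 became 0.02 without the first stably expanded library. *Prom1*, which encodes CD133, rose from 13.5, 8.27 and 10.0 to 92.1, 79.2 and 67.7 (2.81 ± 0.38, adjusted p = 0.00412). *Cdkn1c*, the cyclin-dependent kinase inhibitor p57, rose from 172, 93.8 and 39.2 to 709, 390 and 466 (2.54 ± 0.43, adjusted p = 0.00877). *Dach1*, a transcriptional cofactor of early progenitors, rose from 757, 391 and 299 to 1689, 1127 and 1617 (1.70 ± 0.28, adjusted p = 0.00869), and *Lin28a*, an RNA-binding protein that blocks let-7 maturation, by 2.44-fold. All 4 passed without any single library. *Mllt3*, which supports stem cell self-renewal, was called lower at 76.0, 108 and 124 against 33.1, 50.1 and 53.1, and in only 1 of the 6 fits without a library (adjusted p up to 0.142). None of the 5 tested genes of 22 in the HOX, MEIS and PBX list was called.

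Transcription factors of myeloid cells moved both ways. Of 39 listed 36 were tested, with a median of -0.06 (0.00 without the first stably expanded library), 2 called higher (*Cebpe* and *Id2*) and 4 lower (*Irf8*, *Klf4*, *Satb1* and *Bcl11a*). *Satb1*, a chromatin organizer, was at 1270, 501 and 972 against 240, 470 and 374 (adjusted p = 0.0342; 0.11 by DESeq2). *Bcl11a*, a repressor needed for lymphoid and dendritic cell development, was at 44.8, 35.9 and 19.2 against 6.26, 9.11 and 7.97 (adjusted p = 0.0419) and was called in none of the fits without a library, nor by DESeq2 (adjusted p = 0.051). The number called lower was 2 without the first stably expanded library and 1 without the second or the third pre-malignant one. *Aff3*, a member of the super elongation complex family outside the list, was at 341, 273 and 309 against 37.5, 56.5 and 96.9 (-2.36 ± 0.31, adjusted p = 0.00374). It was among the 12 largest decreases under the limits given for *Nlrp3*.

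Growth and cell division genes were close in the 2 groups by the size of the difference. None of 38 MYC target and ribosome biogenesis genes, 42 DNA replication genes and 36 mitosis genes was called, although 30, 34 and 33 of them were positive, with medians of 0.10, 0.20 and 0.26. Without the first pre-malignant library the medians of the MYC and mitosis lists were 0.05 and 0.09, without the first stably expanded library that of the replication list was 0.13 and that of the mitosis list 0.17, and with the olfactory and vomeronasal covariate the replication and mitosis medians were 0.10 and 0.06. Of 34 tested glycolysis and hypoxia genes 29 were positive, with a median of 0.30, and 1 was called higher. This is 2.94% of the 34, near the 2.75% of all genes tested that were called in either direction. The gene was *Vegfa* (689, 640 and 391 against 1818, 902 and 1456, 1.26 ± 0.26, adjusted p = 0.0173), and its call was lost without the first stably expanded library (adjusted p = 0.0523). Of 31 polycomb and DNA methylation genes none was called.

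In sterol synthesis 26 of 27 genes were tested, 20 were positive and 2 were called higher, against 1.2% of all genes tested. The list median was 0.35, and 0.21 without the first pre-malignant library. *Sc5d*, the sterol desaturase, rose from 157, 107 and 127 to 272, 235 and 317, and lost its call without the third stably expanded or the second pre-malignant library (adjusted p up to 0.0539). Enzymes of sphingolipid metabolism moved both ways. *Sgms2*, a sphingomyelin synthase, was among the 2 called higher (57.2, 49.6 and 43.8 against 110, 126 and 85), whereas *Sgms1*, the other sphingomyelin synthase (186, 279 and 201 against 80.4, 117 and 87.6), and *Cers4*, a ceramide synthase (149, 199 and 143 against 62.6, 65.6 and 53.1), were called lower. Of the 4 called genes of this list, *Cers4* alone passed without any single library. Among 8 serpins, *Serpina3f*, an acute phase protease inhibitor with near-identical neighbors that may share its reads, was called lower, at 52.0, 79.1 and 95.8 against 36.6, 4.55 and 9.29 (adjusted p = 0.0345), in 1 of the 6 fits without a library and not by edgeR (adjusted p = 0.058). Of the 8 serpins 4 were positive. Normalized counts summed over the list were 1975 to 2333 in the pre-malignant and 2728.5 to 4046 in the stably expanded libraries. The list median of -0.75 was 0.28 with no filter on low values (17 genes tested) and 0.50 with a mean of at least 50 (3 genes tested).

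Of 31 antioxidant and glutathione genes 26 were positive, with a median of 0.24, and 2 were called higher, against 1.2% of all genes tested. *Gpx3*, the secreted glutathione peroxidase, was at 5.20, 3.68 and 39.2 in the pre-malignant and 547, 331 and 275 in the stably expanded libraries, a 35.0-fold difference (5.13 ± 0.67, adjusted p = 0.00374). *Mgst3*, a microsomal glutathione transferase, was at 23.9, 37.7 and 31.0 against 84.9, 58.3 and 99.6, and was called in 1 of the 6 fits without a library (adjusted p up to 0.11). None of 9 genes of the phagocyte NADPH oxidase was called, and *Cybb*, its catalytic subunit, was at 915, 1390 and 1791 against 2605, 1999 and 752, overlapping between the groups.

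Survival and stress lists held few calls. *Bcl2*, the anti-apoptotic founder of its family, was the 1 of 12 family members called, lower, at 1071, 1111 and 1442 against 431, 900 and 507 (-1.04 ± 0.23, adjusted p = 0.0247). Its call held in 1 of the 6 fits without a library (adjusted p up to 0.0794). Of 19 p53 targets the kinases *Plk2* (37.5, 16.5 and 21.0 against 2.68, 6.37 and 1.33) and *Plk3* (147, 215 and 213 against 63.5, 124 and 77.0) were called lower, with adjusted p up to 0.125 without single libraries. Among 17 genes of the integrated stress response, *Ppp1r15a* was the 1 called. The calls were 8.33%, 10.5% and 5.88% of the BCL2 family, p53 and integrated stress response lists, against 2.75% of all genes tested.

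At the cell surface, 3 of 14 tetraspanins were called higher, against 1.2% of all genes tested. Of the 14, 13 were positive and the median was 0.30. *Cd81*, a partner of integrins, rose from 592, 529 and 502 to 1336, 1234 and 1210 (1.22 ± 0.11, adjusted p = 0.00108), a narrow spread in both groups. *Tspan2* rose from 180, 165 and 151 to 623, 386 and 416, and *Cd63* is given above, and all 3 kept their calls without any single library. The list of 32 adhesion and homing receptors went both ways. *Itga1*, the collagen-binding integrin α1 chain, fell from 3252, 3718 and 5056 to 870, 2334 and 953 (-1.66 ± 0.31, adjusted p = 0.0123; 0.066 by DESeq2), and *Pecam1*, which encodes the junction protein CD31, by 2.01-fold, from 3168, 3321 and 3320 to 1224, 1944 and 1798. *Pecam1* stayed at an adjusted p up to 0.0301 without single libraries but slipped under the fold limit in 3 of those fits. *Cxcr2* and the cadherin genes *Cdh1* (1.04, 2.76 and 7.30 against 17.0, 16.4 and 37.2) and *Cdh17* were called higher and lost their calls without some libraries (adjusted p up to 0.132), and *Cdh1* was not called by DESeq2 (adjusted p = 0.073).

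Of 35 regulators of the actin cytoskeleton 2 were called higher and 2 lower, against 1.2% and 1.55% of all genes tested. *Gsn*, the actin-severing protein gelsolin, rose from 313, 319 and 317 to 2065, 1062 and 987 (2.03 ± 0.23, adjusted p = 0.00284). *Marcksl1*, a membrane-bound actin regulator, rose from 1359, 781 and 589 to 2754, 1404 and 2852, but not in 4 of the 6 fits without a library (adjusted p up to 0.0942), nor by DESeq2 (adjusted p = 0.098). *Palld*, palladin, which organizes actin bundles, fell from 96.8, 198 and 53.8 to 2.68, 6.37 and 11.9 (-3.85 ± 0.59, adjusted p = 0.00607), and *Pkp4*, plakophilin 4, from 253, 175 and 254 to 50, 90.2 and 23.9 (-2.21 ± 0.41, adjusted p = 0.0116). Among the other large changes, *Plxnb2*, the semaphorin receptor plexin B2, fell from 473, 558 and 773 to 59.9, 229 and 116 (-2.32 ± 0.39, adjusted p = 0.00869), and *Slc13a5*, a citrate transporter, rose from 101, 79.1 and 13.7 to 645, 360 and 308 (3.08 ± 0.60, adjusted p = 0.0141). *App*, the amyloid precursor protein, shows how far 1 pre-malignant library could differ from its group, with 1234, 13.8 and 73.0 against 2757, 3763 and 1342. *App* was called by limma (4.44 ± 1.17, adjusted p = 0.0437) but in only 1 of the 6 fits without a library and not by edgeR or DESeq2 (adjusted p = 0.14 and 0.70).

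Spread was similar in both groups although 1 held mice of a single clone and the other clones of a single mouse. The median SD of log2 values was 0.197 over the pre-malignant and 0.225 over the stably expanded libraries, and of 9112 genes with a mean of at least 100 the library values ranged over 4-fold or more in 45 and 52 genes. Granule, immediate early and monocyte genes were among those in which the stably expanded libraries differed, as given above.

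The de novo expanded libraries are of the clones that were pre-malignant in mouse 15, and share the endpoint and the mice with the stably expanded clone. With all 9 libraries scaled together, the third de novo expanded library lay nearer to the stably expanded than to the pre-malignant mean in 324 of the 384 called genes (84.4%), against 62.7% of all genes tested. The first and second did so in 115 (29.9%) and 110 (28.6%), against 50.3% and 47.8% of all genes. *Cebpe*, for example, was at 116, 219 and 1236 in the 3 de novo expanded libraries, *Cd63* at 189, 253 and 2477, *Csf1r* at 733, 1136 and 172 and *Nlrc5* at 1511, 1314 and 473. *Gpx3* was an exception, at 3.42, 2.62 and 5.41 in all 3. These are descriptions of 3 libraries, and both comparisons share the stably expanded ones. Tested directly in a fit of all 9 libraries, 2 genes were called between the stably expanded clone and the de novo expanded clones, *Gpx3* (6.32, adjusted p = 0.0428) and *Fnbp1l* (1.4, adjusted p = 0.0428), an actin regulator. These groups share mice, but the columns are not tied to mice, so that fit holds no term for the mouse.

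**Figure D4:**
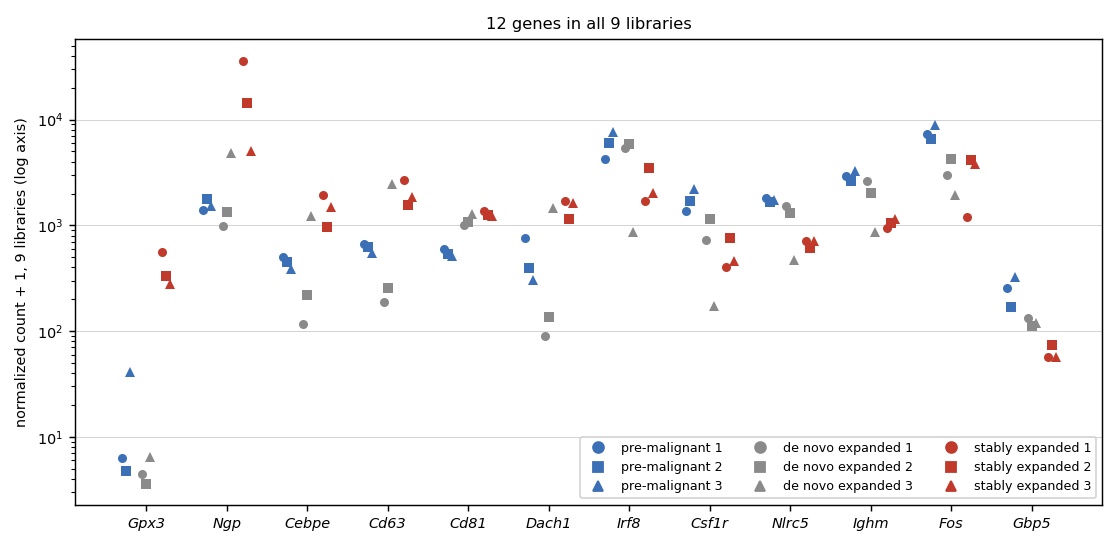
Normalized count + 1 (y axis, log scale) of 12 called genes in the 3 pre-malignant (blue), 3 de novo expanded (gray) and 3 stably expanded (red) libraries, scaled together, with 1 point per library. The third de novo expanded library lies with the stably expanded clone in *Cebpe*, *Cd63* and *Nlrc5*, while *Gpx3* is at 5.41 or less in the de novo expanded libraries and at 275 or more in the stably expanded ones.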

How the data were processed

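RNA-Seq was done on 9 sorted cell samples, and the 6 of this comparison are used here with the 3 others beside them. Per the labels and the methods of the study, libraries were made from total RNA with a stranded kit and sequenced as single reads, and reads were trimmed (Trim Galore 0.6.4), aligned to GRCm38.p6 (STAR 2.6.1d) and counted on GENCODE M25 genes (featureCounts 1.6.4). The strand setting of the counting is not given in the sources used here, so overlapping antisense genes may share reads. The deposited values are a signal in normalized counts, which the authors made per table of 6 libraries, dividing reads by size factors from DESeq2. Fold changes and p-values in the same tables hold the authors' own comparisons and were not used. Whole reads were recovered from the steps between low values, and 99.9954% to 100% of values came out whole within 0.05 of a read. Depth was 10379739 to 15325127 reads per library, and counts of a gene limit its precision, for counting error only.

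Genes with a mean normalized count of 10 or more were tested on log2(value + 1) with limma 3.58.1 (R 4.3.3, empirical Bayes with a trend, two-sided, Benjamini-Hochberg over 13968 genes). Fold changes are on that scale, which understates those of low genes. Calls needed an adjusted p below 0.05 and 2-fold. Errors of log2 fold changes are SE and those of means are SD. Groups follow the labels, and columns are known to the group only, so no mouse or clone is given to a library. Nothing states that library preparations were repeated, so p-values measure the spread between these samples. The count test on recovered reads (edgeR 4.0.16, quasi-likelihood) and DESeq2 1.42.0 were alternatives, with 377 and 393 genes called. The procedure was tested on simulated data. The genes named are the called members of the lists, genes with 3 reads or fewer throughout 1 group, and sort and design genes. In each direction they also include the 12 largest changes of called genes whose groups do not overlap and whose higher group has a mean of at least 100. The 8 smallest adjusted p in each direction among called genes with a mean of at least 100 over the 6 libraries were added. Not all of these genes are described. Results for a few genes are not reported here. Genes picked after their values were seen are marked. The comparison, its members and the gene lists were chosen with earlier results of these data known.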

Additional observations from a re-analysis of the deposited data

How the results depend on the processing

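The 384 calls (168 higher, 216 lower) kept their direction wherever they had a value. Adding 0.5 or 5 in place of 1, no filter on low values, quantile normalization, centring on the median, edgeR and DESeq2 gave 370 to 525 calls. A mean of at least 50 left 267, with 125 lower. With no fold limit 1110 genes passed. The fit of all 9 libraries gave 6 calls (3 higher, 3 lower) and the olfactory and vomeronasal read share as covariate 5 (3 higher, 2 lower), with 2623 and 1177 genes at an unadjusted p under 0.05 against 3553, and the cause was not tested. Leaving out 1 library gave 206 to 452 calls, 96 to 171 higher and 85 to 284 lower, in detail 208 without stably expanded library 1 and 240, 206 and 219 without pre-malignant libraries 1, 2 and 3. Of 121 named calls 62 passed in all 6 of these fits. DESeq2 shared 330 and edgeR 352 of the 384 calls. With 3 libraries a group, differences under 2-fold and genes at low counts are those the data resolve least. No paired analysis was possible because the stably expanded and the pre-malignant samples share neither a mouse nor a clone. The B lineage median of -1.68 was -0.77 with a mean of at least 50, where 4 of its genes were tested.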
